A study of Mus musculus with 9 samples.

Results

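DNA methylation at genes of the germline and of meiosis was followed in 3 populations of sorted mouse spleen cells. The set held 38 genes grouped by function: 13 of the piRNA pathway, 5 of the synaptonemal complex, 5 of the meiotic cohesin and chromosome axis, 3 of recombination, 7 regulators of germ cells and 5 other germ cell genes. A CpG belonged to the set when the annotation supplied with the data gave one of these genes as its closest gene by start site and when all 9 libraries had at least 10 reads at it. This gave 444 CpGs of 356320 tested, at 34 of the 38 genes. Of these CpGs 136 lay within 1000 bp of the transcription start site and 308 lay farther away. No CpG of Syce1, Asz1 or Hormad1 reached the coverage minimum in all 9 libraries, and the annotation gave no CpG to Tdrkh. Methylation levels were no part of this rule, though the genes were chosen with earlier results of these data known.

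Libraries were made by reduced representation bisulfite sequencing, in which DNA is cut with MspI at CpG-containing sites and bisulfite turns unmethylated cytosine into a base read as thymine. The mice were female C57Bl/6J, 10 weeks old, and the spleen was the source of all cells. Plasma cells (B220low CD138+) and plasmablasts (B220mid CD138+) were induced by lipopolysaccharide (LPS), a bacterial activator of B cells, and both were taken on day 3, while naive B cells (B220+ CD43-) came from mice without LPS. Each population had 3 libraries. LPS treatment therefore went with both antibody-secreting populations and could not be told apart from cell type. No expression values were used here, so methylation is described without the genes' transcription.

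As background, many genes that serve germ cells carry CpG-dense promoters that are methylated during early embryonic development and stay methylated in body cells, where the genes are silent. Their products include PIWI proteins and partners that silence transposons with piRNAs, the synaptonemal complex that joins paired chromosomes, and the enzymes that break and repair DNA in meiosis. B cells lose methylation at many sites as they divide and become antibody-secreting cells. Most tested CpGs near the start sites of the set were highly methylated in naive B cells, so loss could be followed at these genes.

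Promoters of the set were denser in CpGs than those of other genes. For 34 of the genes RefSeq (build GRCm38.p6) gave 41 promoters, with a median of 15 CpGs each in the 250 bases before the start, against 6 over 32851 promoters of all genes. In these 250 bases the motif CACGTG, which reads alike on both strands, was in 18 of the 41 (43.9%), against 6.02% of all promoters. A search for TCCCGC on either strand found it in 13 (31.7%), against 16.9% of all. Both motifs contain a CpG, and the promoters of all genes were not matched for CpG density. Overlapping promoters of the same gene, as at Hormad1, Stk31 and Tdrd1, were counted separately, which raises the counts of motifs. Sequences of 250 bases upstream of the start are shown for 3 genes whose promoter CpGs were tested and were highly methylated in all populations; capitals mark the tested CpGs, placed by their distance to the start, since the methylation data use build mm9. Mael lies at chr1:166238745-166238994 on the minus strand, Sycp1 at chr3:102936101-102936350 on the minus strand and Slc25a31 at chr3:40708621-40708870 on the plus strand, and each is written 5′ to 3′ on its gene's strand.
Mael: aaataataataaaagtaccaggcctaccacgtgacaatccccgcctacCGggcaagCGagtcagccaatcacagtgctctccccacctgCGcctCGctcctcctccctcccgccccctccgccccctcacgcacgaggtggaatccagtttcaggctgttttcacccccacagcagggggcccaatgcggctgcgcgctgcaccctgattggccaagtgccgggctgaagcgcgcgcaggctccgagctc
Sycp1: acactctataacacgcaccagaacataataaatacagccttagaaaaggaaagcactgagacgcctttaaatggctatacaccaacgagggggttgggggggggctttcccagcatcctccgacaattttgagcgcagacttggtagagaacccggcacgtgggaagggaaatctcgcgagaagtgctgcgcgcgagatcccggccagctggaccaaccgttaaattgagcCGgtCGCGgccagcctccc
Slc25a31: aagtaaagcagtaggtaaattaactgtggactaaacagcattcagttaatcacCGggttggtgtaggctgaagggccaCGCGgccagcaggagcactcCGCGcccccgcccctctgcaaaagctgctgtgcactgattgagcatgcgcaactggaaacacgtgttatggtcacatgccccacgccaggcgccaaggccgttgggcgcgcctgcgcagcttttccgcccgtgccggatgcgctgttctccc
The 4 marked CpGs of Mael, the 3 of Sycp1 and the 5 of Slc25a31 all fell on a CG of these sequences once the distance was shifted by 1 base on the plus strand and 2 on the minus strand; the tested CpGs upstream of Tdrd5 and Dmrtb1 did not, that of Tdrd1 did in 1 of its 3 promoters, and those promoters are not shown. CACGTG is present in all 3 stretches and TCCCGC in that of Mael alone.

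Depth and background differed between libraries. Total reads over CpGs ran from 23168926 to 26202053 in plasma cells, from 17366816 to 19304010 in plasmablasts and from 16037172 to 29948088 in naive B cells, and the median coverage of the germline gene CpGs was 20 to 34 reads. Over 78187 CpGs that were almost unmethylated everywhere, the level was 1.07% to 1.18% in plasma cells, 2.22% to 6.27% in plasmablasts, and 0.773%, 3.26% and 2.77% in naive B cells 1 to 3. By this level and by 5 mitochondrial CpGs, naive B cells 1 resembled the plasma cell libraries, and naive B cells 2 and 3 the plasmablast libraries. Comparisons within these library sets are therefore given beside the pooled ones. Fits with a term for the library set and with the background subtracted are given too. Beyond these, the part of this background in the results was not tested. Which animals gave which library is not stated in the labels; the p-values rest on differences among libraries of a group, which may be technical, and single CpGs share 1 estimate of that spread.

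Near their start sites the germline genes were mostly methylated in every population, unlike start sites in general. The mean level over their 136 CpGs was 71.4%, 69.3% and 68.4% in plasma cells, 71.3%, 74.7% and 73.5% in plasmablasts, and 77.1%, 79.2% and 79.2% in naive B cells. Plasma cells and plasmablasts lay below naive B cells in every library, and plasma cells 1 overlapped the plasmablasts. Group means were 69.7% ± 1.55 in plasma cells, 73.1% ± 1.72 in plasmablasts and 78.5% ± 1.19 in naive B cells (SD, n = 3 each). Over all 93893 tested CpGs within 1000 bp of a start site the means were 11.7% in plasma cells, 15.7% in plasmablasts and 15.8% in naive B cells. In naive B cells 75.7% of the germline gene CpGs near a start site had a level of 80% or more, against 9.60% of all such CpGs.

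Averaged over all CpGs away from the start site, the germline genes were close to other genes in level. Their 308 CpGs farther than 1000 bp averaged 64.7% ± 1.65 in plasma cells, 69.6% ± 1.01 in plasmablasts and 79.5% ± 1.07 in naive B cells (SD, n = 3 each). All 262427 tested CpGs at such distances averaged 63.4% in plasma cells, 68.8% in plasmablasts and 79.1% in naive B cells. Of the 308 CpGs, 141 lay in the gene itself, 78 between genes and 89 inside another gene that the annotation also lists. In naive B cells these averaged 85.6%, 87.3% and 62.9%. The last group includes 33 CpGs inside Nova2 that were assigned to Nanos2. They averaged 9.59% in naive B cells and lower the mean over the 308. All tested CpGs were not split in this way, so the closeness of the means depends on which CpGs were assigned. Within library sets, plasma cells minus naive B cells 1 gave -7.45 points near the start (means of 69.7% and 77.1%) and -13.6 points in the rest (64.7% and 78.3%). Plasmablasts minus naive B cells 2 and 3 gave -6.06 points near the start (73.1% and 79.2%) and -10.5 points in the rest (69.6% and 80.1%).

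**Figure D1:**
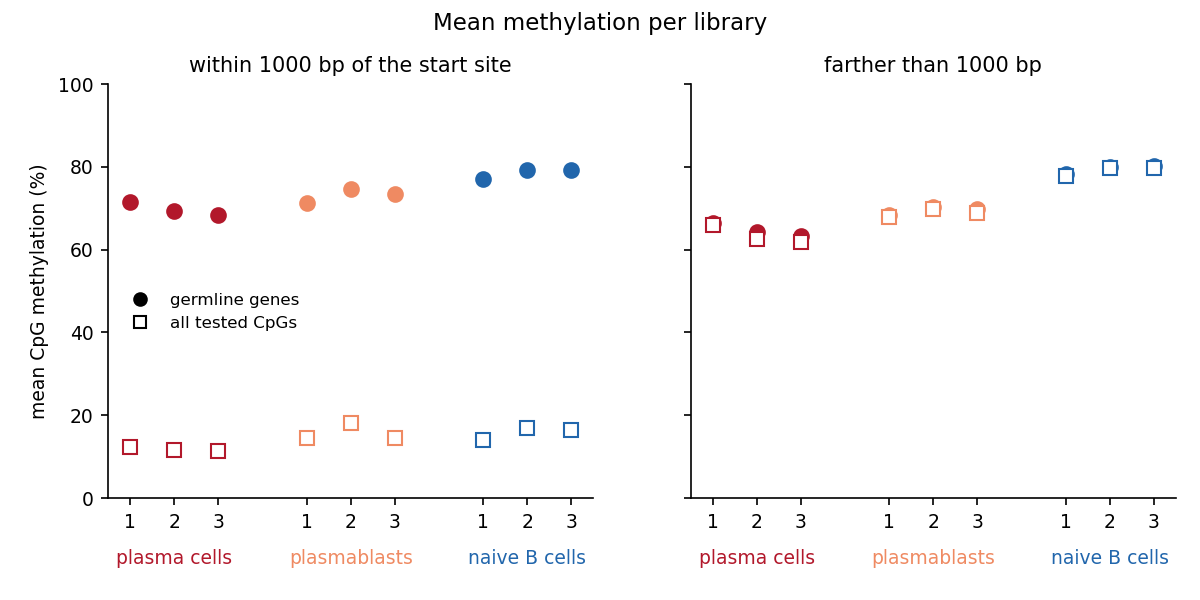
Mean CpG methylation (%) of each library, in plasma cells, plasmablasts and naive B cells, for the germline genes (filled circles) and for all tested CpGs (open squares), within 1000 bp of the start site (left) and farther away (right). Near start sites the germline genes sit between 68.4% and 79.2% and all CpGs under 20%, while in the rest the circles and squares nearly coincide.

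The comparison of plasma cells with naive B cells asked which methylated germline promoters lost methylation. A CpG was called when its adjusted p was under 0.01 and its pooled level differed by at least 20 percentage points. Of the 136 CpGs near a start site, 22 were called lower in plasma cells than in naive B cells and none higher (50 lower and 0 higher at an unadjusted p under 0.05); over all CpGs near start sites 4.91% were called lower. Most CpGs near other start sites were already at a low level in naive B cells. At 80% or more in naive B cells there were 103 germline gene CpGs near a start, of which 20 (19.4%) were called lower in plasma cells, against 30.8% of all such CpGs. Together these averaged 84.4% in plasma cells and 95.4% in naive B cells, a difference of -11.0 points, against -17.1 points over all 9011 such CpGs (77.4% in plasma cells and 94.5% in naive B cells). These CpGs were picked by their naive level, so the differences are a description, with no test. Leaving out plasma cells 3 gave 14 calls in place of 22, and a term for the library set gave 10.

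Fewer CpGs near the start sites were called in plasmablasts. Against naive B cells 6 of the 136 CpGs were called lower and none higher (42 lower and 1 higher at an unadjusted p under 0.05), with 1.81% called lower over all CpGs near start sites. Of the 103 highly methylated CpGs 4 were among them, where 13.6% of all such CpGs were called. Between plasma cells and plasmablasts 1 CpG was called lower, at Mei1, where 0.332% of all near-start CpGs were. It was not called without plasma cells 1, plasma cells 2, plasma cells 3, plasmablasts 2 or plasmablasts 3, nor with a replicate block, the library set as a term or the background subtracted.

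Summed over the CpGs of a gene, 12 genes had at least 5 tested CpGs near the start. In naive B cells 9 of the 12 were at 80% or more and 2 (Syce2 and Tex15) under 20%, whereas 324 of all 7117 genes (4.55%) were at 80% or more and 78.8% under 20%. For a gene the call needed a difference of 5 points or more in pooled reads and the same limit on the adjusted p. Mov10l1, Sycp1, Mei1 and Brdt fell in plasma cells against naive B cells, 4 of the 12, where 5.21% of all genes were called lower. The median pooled difference was -10.5 points over the 12 genes and -1.70 over all genes. All genes were not matched for the naive level, and most had little methylation to lose. Among single CpGs near a start at 80% or more in naive B cells, the germline genes had the smaller share called (19.4% against 30.8%). For plasmablasts against naive B cells the same model called none of the 12 (5 were lower and 0 higher at an unadjusted p under 0.05, and limma on unweighted means called Brdt), with 0.169% called over all genes and medians of -5.22 points for the 12 and 1.58 for all genes. Between plasma cells and plasmablasts none of the 12 was called by the quasi-binomial model or by limma (2 lower and 0 higher at an unadjusted p under 0.05), and 0% of all genes were. The 4 calls in plasma cells depend on single libraries: without naive B cells 2 there was 1, without plasmablasts 3 there were 2, and without naive B cells 3, plasma cells 2 or plasma cells 3 there were 0. A term for the library set also gave 0 calls. Without naive B cells 1 there were 6.

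**Figure D2:**
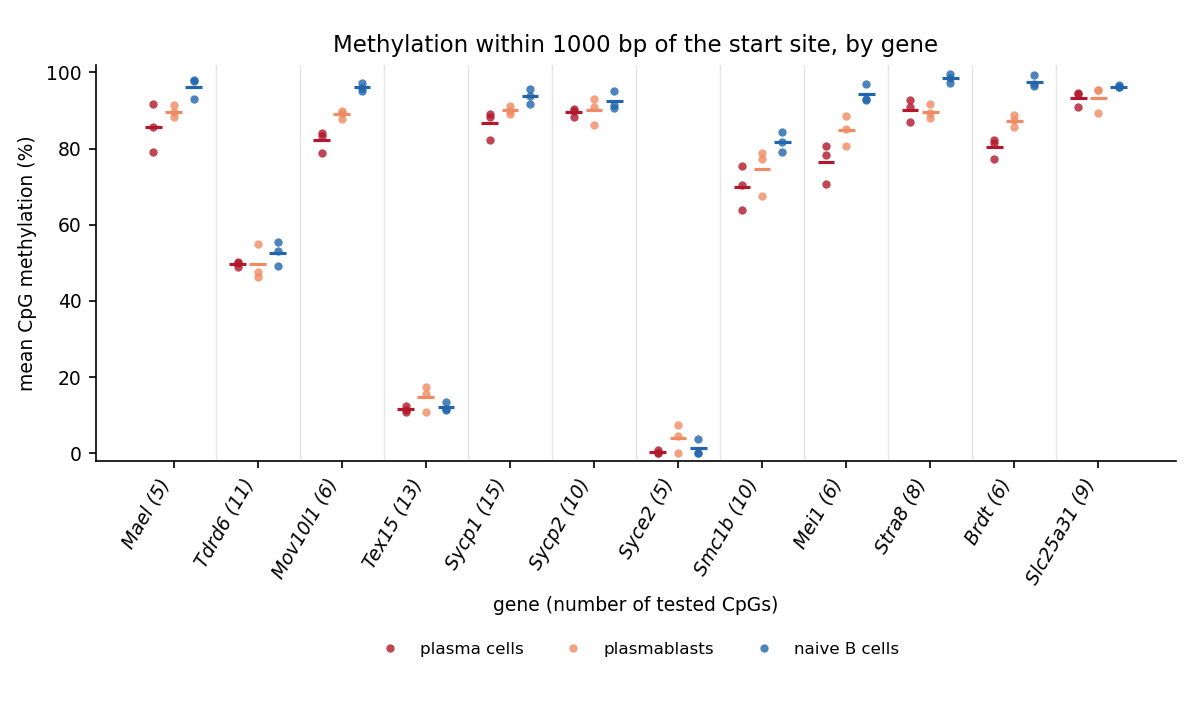
Mean methylation (%) within 1000 bp of the start site for the 12 germline genes with at least 5 tested CpGs there (number in brackets), each point a library and each line the mean of a group. From left to right in each gene stand plasma cells, plasmablasts and naive B cells; 9 genes are at 80% or more in naive B cells and Syce2 is near 0.

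Among genes of the piRNA pathway, Mov10l1, an RNA helicase needed to make piRNAs, was called near its start. Its 6 CpGs averaged 83.4%, 84.1% and 78.9% in plasma cells, 87.8%, 89.4% and 90% in plasmablasts, and 95.1%, 95.9% and 97.1% in naive B cells. The 3 groups did not overlap. Pooled reads gave -14.5 points for plasma cells minus naive B cells (adjusted p = 0.00281) and -7.09 for plasmablasts minus naive B cells (adjusted p = 0.131). Its CpG with the strongest change, in an intron at position 88813880 of chromosome 15 (mm9), 455 bp downstream of the start, had 71.0%, 60% and 84.2% in plasma cells, 68.2%, 84.4% and 87.2% in plasmablasts, and 100%, 98.2% and 96.9% in naive B cells. Plasma cells and plasmablasts overlapped at this CpG and both lay below naive B cells.

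Mael, which takes part in transposon silencing in germ cells, had 5 CpGs near its start, 4 of them in the printed promoter. They averaged 85.8%, 91.7% and 79.1% in plasma cells, 89.6%, 91.4% and 88.2% in plasmablasts, and 93.0%, 97.7% and 98.0% in naive B cells. Plasma cells spanned the whole range of the plasmablasts, and the gene was not called (-10.3 points in plasma cells minus naive B cells, adjusted p = 0.0989); limma on unweighted means did call it (-10.7 points, adjusted p = 0.00579). One promoter CpG, 154 bp upstream (chromosome 1, position 168169030), was called at -23.2 points (adjusted p = 0.00482), with 68.0%, 95.5% and 53.3% in plasma cells against 88.9%, 100% and 100% in naive B cells, so plasma cells 2 was within the naive range.

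Tdrd6 and Tex15 held start sites with little or intermediate methylation. Tdrd6, a Tudor-domain protein of the chromatoid body of spermatids, averaged 48.9%, 50.2% and 49.9% over 11 CpGs in plasma cells, 46.4%, 55.0% and 47.6% in plasmablasts, and 49.1%, 53.1% and 55.5% in naive B cells. The groups overlapped. Its level followed position: at 3 CpGs 443 to 463 bp upstream naive B cells had 93.6% to 100% and plasma cells 89.6% to 95.3%, whereas at 55 bp upstream plasma cells had 12.9% and naive B cells 8.58%. Pooled reads gave -11.6 points for plasma cells minus naive B cells (adjusted p = 0.171), while unweighted means differed by -2.92. Without naive B cells 1 the pooled difference was -18.8 points and was called (adjusted p = 0.00200). Tex15, which is needed for repair of meiotic breaks and for silencing of transposons in male germ cells, averaged 12.3%, 11.4% and 10.9% over 13 CpGs in plasma cells, 15.6%, 17.4% and 10.9% in plasmablasts, and 11.4%, 11.7% and 13.3% in naive B cells. The groups overlapped and no contrast was called (plasma cells minus naive B cells: adjusted p = 0.235).

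Other piRNA genes had fewer than 5 tested CpGs near the start and are described without a gene test. Piwil4, a nuclear PIWI protein, was intermediate: 3 CpGs averaged 41.4% ± 1.81 in plasma cells, 37.0% ± 10.9 in plasmablasts and 61.9% ± 4.48 in naive B cells. At the CpG 312 bp downstream of its start (chromosome 9, position 14522604) the plasmablast level was 30.4%, 28.0% and 38.1%, against 74.3%, 61.8% and 69.4% in naive B cells, a called difference of -35.6 points. Plasma cells had 40%, 51.9% and 41.2% there, above the plasmablasts in every library and below naive B cells. Tdrd5, a Tudor-domain protein of piRNA processing, had 73.3% ± 3.50 in plasma cells, 76.7% ± 0.895 in plasmablasts and 95.2% ± 4.24 in naive B cells over 3 CpGs, of which 2 were called lower in plasma cells. Tdrd1, a scaffold protein that binds PIWI proteins, had 69.2% ± 6.07 in plasma cells, 85.5% ± 2.93 in plasmablasts and 91.0% ± 4.45 in naive B cells over 3 CpGs, with 2 called in plasma cells. Piwil2 had 1 tested CpG near its start, at 74.2% ± 7.65 in plasma cells, 83.4% ± 4.73 in plasmablasts and 97.2% ± 2.65 in naive B cells, with a call for lower in plasma cells. Piwil1, Ddx4 and Tdrd9 had none.

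In the synaptonemal complex, Sycp1, the filament that spans between paired chromosomes, was called near its start, but the change was uneven. Its 15 CpGs averaged 89.1%, 82.3% and 88.3% in plasma cells, 89.1%, 89.8% and 91.2% in plasmablasts, and 91.7%, 95.6% and 93.8% in naive B cells. Plasma cells lay below naive B cells, and their highest library met the lowest plasmablast library. The pooled difference was -11.5 points in plasma cells minus naive B cells (adjusted p = 0.00485), while unweighted means differed by -7.11 and were not called by limma (adjusted p = 0.0372). The 3 CpGs marked in the printed promoter, 11 to 17 bp upstream, had 95.4% to 97.2% in plasma cells and 97.4% to 100% in naive B cells. By contrast the CpG 598 bp upstream (chromosome 3, position 102740622) had 49.0%, 58.3% and 48.6% in plasma cells, 51.4%, 62.9% and 73.7% in plasmablasts, and 96.9%, 97.1% and 92.3% in naive B cells. It passed in both contrasts, at -45.3 points in plasma cells (adjusted p = 8.34e-14) and -35.6 in plasmablasts, with up to 98 reads in a library. With a window of 500 bp, which leaves this CpG out, the gene's difference was -4.75 points (adjusted p = 0.330).

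Other genes of the complex moved little near the start. Sycp2, of the lateral element, averaged 90.3%, 88.4% and 89.9% over 10 CpGs in plasma cells, 86.2%, 93.0% and 90.9% in plasmablasts, and 90.7%, 95.1% and 91.4% in naive B cells. Plasma cells were just below the lowest naive library, and the pooled difference of -2.53 points was not called (adjusted p = 0.476). Sycp3, its partner in the lateral element, had 90.2% ± 1.94 in plasma cells, 89.5% ± 2.33 in plasmablasts and 94.6% ± 2.91 in naive B cells over 3 CpGs. Syce2, of the central element, had an unmethylated start: 5 CpGs averaged 0%, 0% and 0.870% in plasma cells, 4.44%, 7.50% and 0% in plasmablasts, and 0%, 3.81% and 0% in naive B cells. A library with no methylated read there had 60 to 99 reads, which allows a level of up to 3.03% to 5%, covering counting error only.

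Smc1b, the meiotic cohesin subunit, was intermediate to high near its start, where the neighbour Ribc2 has its promoter too. Its 10 CpGs averaged 75.5%, 70.4% and 63.8% in plasma cells, 67.7%, 77.3% and 78.8% in plasmablasts, and 79.0%, 81.7% and 84.2% in naive B cells. Both LPS populations lay below naive B cells and overlapped each other; the gene was not called (-10.7 points in plasma cells minus naive B cells, adjusted p = 0.117), though limma on unweighted means called it (-11.7, adjusted p = 0.00920). An intronic CpG at 541 bp downstream (chromosome 15, position 84961845) was called at -39.0 points, with 75.0%, 50% and 42.1% in plasma cells against 100%, 90% and 100% in naive B cells, at 11 to 22 reads per library. Stag3, another cohesin subunit, averaged 83.4% ± 6.04 in plasma cells, 91.9% ± 3.51 in plasmablasts and 87.0% ± 5.04 in naive B cells over 3 CpGs that also lie in the promoter of Gpc2, and none was called. Hormad2, an axis protein, had 1 tested CpG near its start, at 87.7% in plasma cells, 86.6% in plasmablasts and 93.1% in naive B cells. Rec8, the meiotic cohesin kleisin, had none.

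Of the recombination genes, Mei1, which is required for meiotic DNA breaks, had the largest difference near the start among the 12 genes. All 6 of its CpGs there lie in exons or introns of Mei1, and they are counted from different annotated starts inside the gene. Its 6 CpGs averaged 78.2%, 80.8% and 70.7% in plasma cells, 80.6%, 88.5% and 85.2% in plasmablasts, and 93.1%, 97.0% and 92.7% in naive B cells. Both LPS populations lay below every naive library, and plasma cells 2 was just above the lowest plasmablast library. Pooled reads differed by -18.0 points between plasma cells and naive B cells (adjusted p = 0.00505) and by -9.60 between plasmablasts and naive B cells (adjusted p = 0.172). The strongest CpG, in an intron 442 bp downstream (chromosome 15, position 81913947), had 63.6%, 76.9% and 48.0% in plasma cells, 55.6%, 95.5% and 90% in plasmablasts, and 94.1%, 100% and 93.5% in naive B cells. The CpG at position 81912133 lay 907 bp upstream of another of these starts. There plasma cells had 60.5%, 57.9% and 55.9%, plasmablasts 80.8%, 92.3% and 90.3%, and naive B cells 87.0%, 86.8% and 85.7%. Only the plasma cells were lower there, and this was the CpG called between plasma cells and plasmablasts (-29.7 points, adjusted p = 0.00832).

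Spo11, the enzyme that makes the breaks, had 4 CpGs near its start at 88.2% ± 3.07 in plasma cells, 91.3% ± 1.78 in plasmablasts and 99.1% ± 0.750 in naive B cells. Its CpG 508 bp downstream was called in plasmablasts (-22.3 points against naive B cells) and differed by -12.5 points in plasma cells, below the 20 points a call needs. Plasmablasts had 73.1%, 83.3% and 76.6% there and naive B cells 100% in all 3 libraries. Dmc1, the meiotic recombinase, had no CpG tested near its start.

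Among the regulators, Stra8, which is switched on by retinoic acid before meiosis, had the highest naive level near the start of the 12 genes with at least 5 CpGs there. Its 8 CpGs averaged 92.7%, 90.9% and 87.0% in plasma cells, 91.7%, 89.4% and 88.1% in plasmablasts, and 97.2%, 98.5% and 99.5% in naive B cells. Both LPS populations lay below naive B cells and overlapped each other. The pooled difference was -8.38 points in plasma cells (adjusted p = 0.0141) and -8.91 in plasmablasts (adjusted p = 0.0519), neither called, and without naive B cells 1 the plasma cell difference of -9.06 points was called (adjusted p = 0.00380). The strongest called CpG of Stra8 lay 28590 bp downstream inside Slc23a4 (chromosome 6, position 34899228), with 81.8%, 73.3% and 52.6% in plasma cells and 93.8%, 100% and 100% in naive B cells. Nanos2, an RNA-binding protein of spermatogonial stem cells, had 2 CpGs near its start, both called lower in plasma cells, at 61.7% ± 11.7 in plasma cells, 73.1% ± 1.62 in plasmablasts and 90.2% ± 5.45 in naive B cells. Dmrtb1, a transcription factor that guides spermatogonia, stayed methylated at 4 CpGs, with 93.7% ± 0.767 in plasma cells, 94.6% ± 3.58 in plasmablasts and 96.5% ± 2.79 in naive B cells, none of them called. Sohlh2, a helix-loop-helix factor, had 1 CpG near its start at 83.0% ± 7.16 in plasma cells, 81.7% ± 13.1 in plasmablasts and 100% ± 0 in naive B cells, not called. For Dazl, an RNA-binding protein of germ cells, 43 CpGs were deposited near the start and none had 10 reads in all 9 libraries. Nanos3 and Sohlh1 had no tested CpG there either.

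Brdt, the testis member of the BET bromodomain family, was called near its start. Its 6 CpGs averaged 82.4%, 81.4% and 77.2% in plasma cells, 85.5%, 87.4% and 88.8% in plasmablasts, and 96.4%, 97.0% and 99.2% in naive B cells. The 3 groups did not overlap, and the pooled difference was -16.4 points in plasma cells minus naive B cells (adjusted p = 0.00232) and -11.0 in plasmablasts minus naive B cells (adjusted p = 0.0545). With 5 reads as the coverage minimum the plasma cell difference was -10.5 points and was not called (adjusted p = 0.481). The intronic CpG 520 bp downstream (chromosome 5, position 107760734) was called, with 70%, 72.7% and 62.5% in plasma cells, 90.5%, 74.1% and 84.2% in plasmablasts, and 95.0%, 100% and 100% in naive B cells.

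Slc25a31, the ADP/ATP carrier of male germ cells, kept its methylated promoter. Its 9 CpGs, 5 of them marked in the printed sequence, averaged 90.9%, 94.3% and 94.7% in plasma cells, 89.3%, 95.3% and 95.4% in plasmablasts, and 96.1%, 96.6% and 96.1% in naive B cells. Every naive library was above every LPS library, but by little: -2.36 points in plasma cells (adjusted p = 0.439) and -2.72 in plasmablasts (adjusted p = 0.488). None of its CpGs was called. Tex14, which builds the bridges between germ cells, fell at 2 of its 4 CpGs near the start, which also lie in the promoter of Rad51c. The CpG 757 bp downstream (chromosome 11, position 87219325) had 57.1%, 53.8% and 60% in plasma cells, 70%, 61.5% and 91.7% in plasmablasts, and 100%, 100% and 82.4% in naive B cells (-37.4 points in plasma cells minus naive B cells). Tex19.1, a controller of transposons, and Stk31, a Tudor-domain kinase, had no CpG tested near the start.

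Differences at the germline genes were smaller close to the start site than at its edges, as a description. Where naive B cells had 80% or more, CpGs within 200 bp of a germline gene's start averaged 86.5% in plasma cells and 94.9% in naive B cells, and 5 of 37 were called lower in plasma cells (13.5%, against 26.9% of all such CpGs). From 201 to 500 bp the means were 86.2% in plasma cells and 95.7% in naive B cells, and 4 of 31 were called (12.9%, against 31.3%). From 501 to 1000 bp they were 80.7% in plasma cells and 95.6% in naive B cells, and 11 of 35 were called (31.4%, against 32.6%). The differences were thus -8.45, -9.47 and -14.9 points with growing distance, while all genes had -15.9, -17.2 and -17.7 points. Beyond, the germline genes had -11.0 points at 1001 to 2500 bp (24 CpGs), -19.9 at 2501 to 10000 bp (57 CpGs) and -15.6 farther out (153 CpGs). These values share libraries and genes, several CpGs come from 1 gene, and the members differ in CpG density from all genes, so no test is given. At 1001 to 2500 bp many of the CpGs lay in a short stretch of Mei1.

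**Figure D3:**
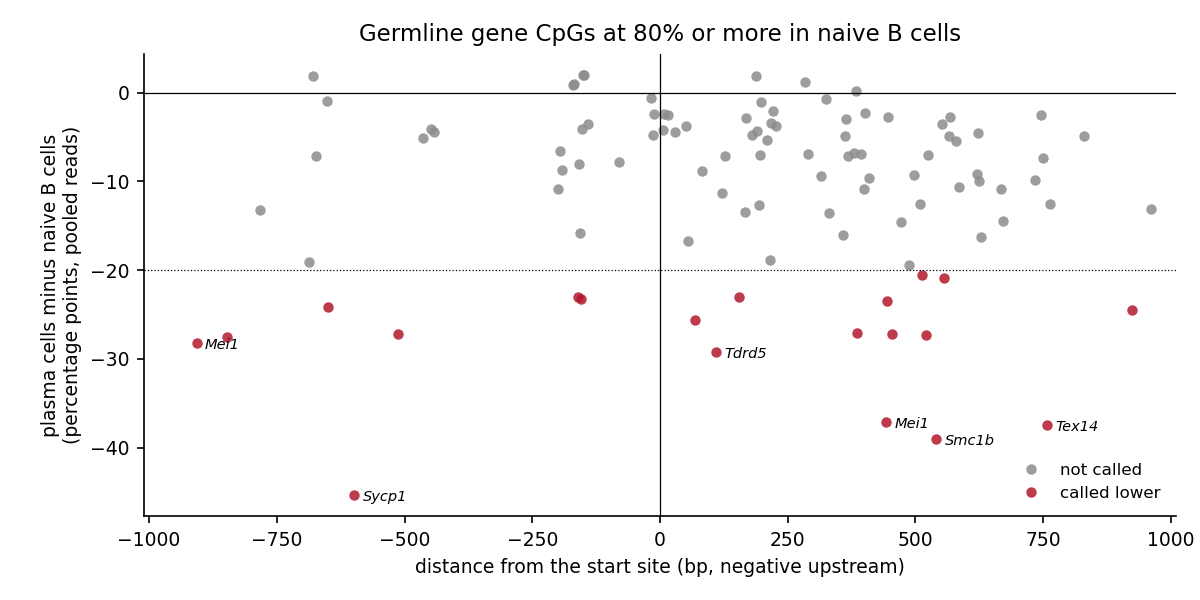
Plasma cells minus naive B cells (percentage points of pooled reads) against the distance from the start site (bp) for the 103 germline gene CpGs within 1000 bp whose naive level was 80% or more; red points were called lower, and the dotted line marks 20 points. Most CpGs within 200 bp lie above the dotted line, and the 4 lowest points are at Sycp1, Smc1b, Tex14 and Mei1, all more than 200 bp from the start.

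In the rest of the loci the germline genes lost methylation as other genes did. Of 308 CpGs 90 (29.2%) were called lower in plasma cells than in naive B cells, where 29% of all such CpGs were, and none was higher (194 lower and 0 higher at an unadjusted p under 0.05). In plasmablasts 40 were lower (13.0%), against 13.7% of all, and none higher (154 lower and 4 higher at an unadjusted p under 0.05). Between plasma cells and plasmablasts the quasi-binomial model called none, with 0.686% over all CpGs (48 lower and 0 higher at an unadjusted p under 0.05); no other tool was run on single CpGs. Of the 234 CpGs whose naive level was 80% or more, 73 (31.2%) were called lower in plasma cells and 36 in plasmablasts, against 33.4% and 16.4% of all such CpGs. With the library set as a term 35 of the 308 were called in plasma cells in place of 90.

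By gene, 21 of 23 tested were called lower in plasma cells in the rest of the locus, where 89.3% of all genes were, and 14 in plasmablasts, where 62.2% were. Nanos2 (-5.82 points, adjusted p = 0.0154) and Sohlh2 (-8.37 points, adjusted p = 0.0173) missed the limit in plasma cells, and all 23 were lower at an unadjusted p under 0.05. Median pooled differences against naive B cells were -15.2 points in plasma cells and -11.6 in plasmablasts, against -17.1 and -10.3 over all genes. Between plasma cells and plasmablasts the quasi-binomial model called none of the 23 and 0% of all genes (7 lower and 0 higher at an unadjusted p under 0.05), and limma on unweighted means called 2. Of the 33 CpGs assigned to Nanos2 all lay inside Nova2, a gene of neurons, and averaged 6.13% ± 0.551 in plasma cells, 9.95% ± 2.77 in plasmablasts and 9.59% ± 1.51 in naive B cells.

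**Figure D4:**
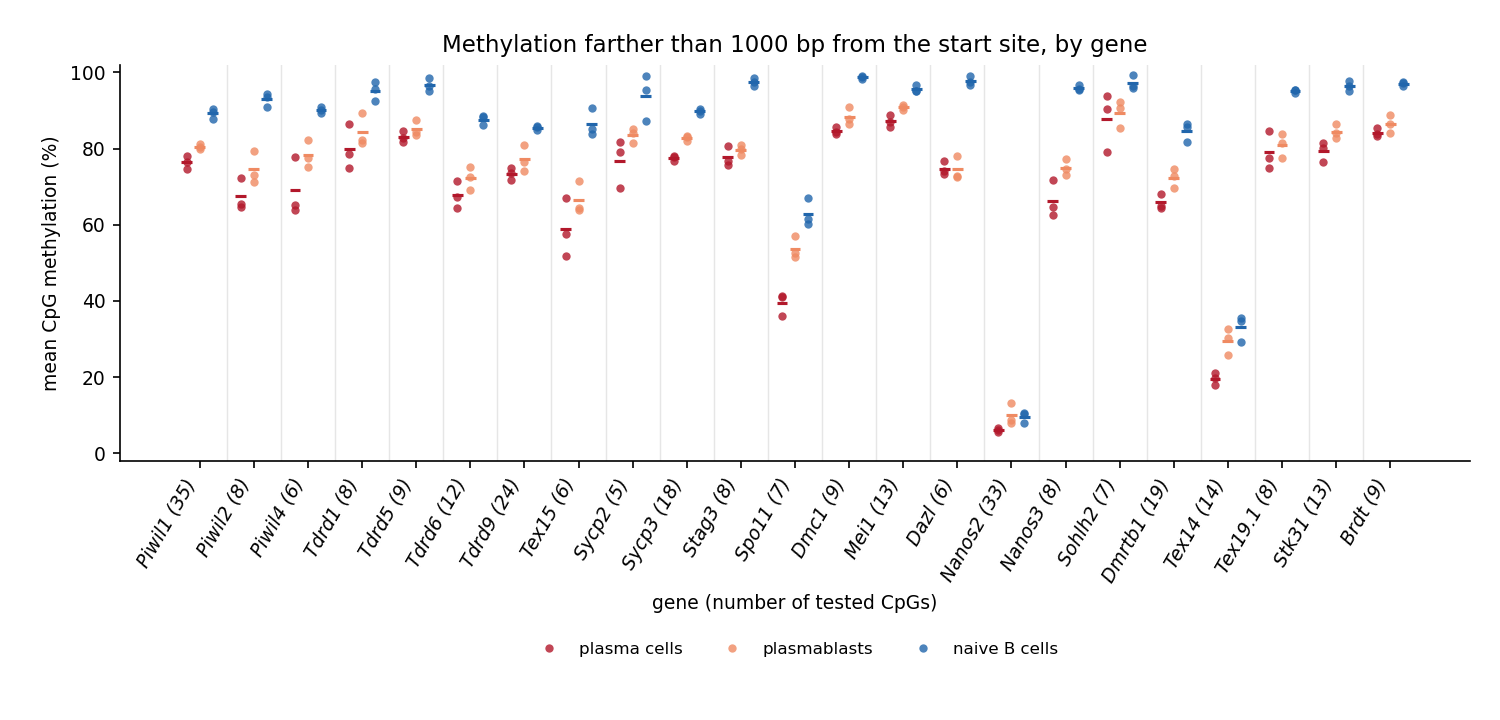
Mean methylation (%) farther than 1000 bp from the start site for the 23 germline genes with at least 5 tested CpGs there (number in brackets), each point a library and each line the mean of a group, with plasma cells, plasmablasts and naive B cells from left to right in each gene. In 20 genes naive B cells are at 80% or more; Nanos2 is near 10% and Tex14 at 33.2% in naive B cells.

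The largest numbers of called CpGs away from the start were at Dmrtb1 (8 of 19), Piwil1 (7 of 35), Tdrd6 (6 of 12), and Nanos3, Piwil2 and Tex14 (5 each, of 8, 8 and 14), counted for plasma cells against naive B cells. Dmrtb1 averaged 68.2%, 64.3% and 65.0% in plasma cells, 72.8%, 69.6% and 74.7% in plasmablasts, and 81.8%, 85.6% and 86.6% in naive B cells. Its groups did not overlap, and its CpG with the largest difference lay between genes 40499 bp away (chromosome 4, position 107315682), with 42.6%, 34.4% and 36.4% in plasma cells, 57.5%, 61.3% and 52.9% in plasmablasts, and 86.4%, 96.3% and 92.9% in naive B cells (-51.6 points in plasma cells minus naive B cells, adjusted p = 4.12e-11). The start of the same gene stayed above 90%.

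Piwil1, a PIWI protein of meiotic and later male germ cells, averaged 78.0%, 76.5% and 74.7% in plasma cells, 79.8%, 81.2% and 80.3% in plasmablasts, and 87.8%, 90.5% and 89.5% in naive B cells. Its 3 groups did not overlap, and its 35 CpGs fell into 10 in the gene, 9 inside Rimbp2 and 16 between genes. At its strongest CpG, 64050 bp upstream (chromosome 5, position 129178070), plasma cells had 71.9%, 77.3% and 54.5%, plasmablasts 87.1%, 87.5% and 81.5%, and naive B cells 97.1%, 100% and 100%. Piwil2, a PIWI protein of earlier germ cells, had 72.4%, 64.6% and 65.5% in plasma cells, 71.2%, 79.5% and 73.1% in plasmablasts, and 91.0%, 94.4% and 93.5% in naive B cells, all over CpGs of its own gene. Plasma cells and plasmablasts overlapped slightly and both lay well below naive B cells. Its strongest CpG, in an intron 7773 bp downstream (chromosome 14, position 70821127), had 59.3%, 36.1% and 33.3% in plasma cells, 53.8%, 69.8% and 64.2% in plasmablasts, and 90.9%, 90.9% and 83.9% in naive B cells.

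Nanos3, which protects primordial germ cells, had the largest difference among the 23 genes, at 8 CpGs that all lie inside 4930432K21Rik. They averaged 71.7%, 62.4% and 64.6% in plasma cells, 77.3%, 73.1% and 74.6% in plasmablasts, and 96.7%, 95.6% and 95.5% in naive B cells, a pooled difference of -29.9 points in plasma cells (adjusted p = 5.83e-06) and -20.4 in plasmablasts (adjusted p = 8.55e-05). The groups did not overlap. At 4429 bp downstream (chromosome 8, position 86696021) plasma cells had 33.3%, 25% and 37.9%, plasmablasts 42.3%, 44.1% and 57.9%, and naive B cells 95.7%, 97.6% and 92.3% (-62.7 points in plasma cells minus naive B cells), the largest single difference among the 444 CpGs.

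Tdrd6 and Tex15 fell in the rest of the gene while their start sites did not pass the test. Tdrd6 averaged 71.6%, 67.4% and 64.5% over its 12 CpGs in the rest in plasma cells, 72.6%, 69.0% and 75.2% in plasmablasts, and 86.1%, 88.4% and 88.3% in naive B cells, so that plasma cells and plasmablasts overlapped below naive B cells. An exonic CpG 14507 bp downstream (chromosome 17, position 43752740) had 61.9%, 30% and 36.8% in plasma cells, 31.2%, 38.1% and 50% in plasmablasts, and 82.6%, 80.4% and 75.8% in naive B cells, with the larger difference in plasmablasts (-39.8 points). Tex15 averaged 58.8% ± 7.67 in plasma cells, 66.5% ± 4.30 in plasmablasts and 86.6% ± 3.56 in naive B cells over 6 CpGs in the rest. Its intronic CpG 14267 bp downstream (chromosome 8, position 34695284) had 48.6%, 50% and 48.3% in plasma cells, 76.2%, 69.7% and 62.5% in plasmablasts, and 91.7%, 84.1% and 90% in naive B cells.

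Tex14 had a low mean in the rest of its gene, where 7 of its 14 CpGs were under 20% and 3 at 80% or more in naive B cells. The mean was 17.8%, 21.0% and 19.7% in plasma cells, 25.7%, 32.7% and 30.2% in plasmablasts, and 29.3%, 34.7% and 35.5% in naive B cells. Plasma cells lay below both other groups, which overlapped. The pooled difference was -11.5 points in plasma cells (adjusted p = 0.00632) and -0.0166 in plasmablasts (adjusted p = 0.997). The plasma cell call was lost without naive B cells 1 (adjusted p = 0.0107), naive B cells 2 (0.0237), naive B cells 3 (0.0116), plasma cells 2 (0.0208) or plasma cells 3 (0.0416). It was also lost with 5 reads as the minimum (0.0760) and with windows of 500 bp (0.0104) or 200 bp (0.0133). The replicate block (0.0133), subtraction of the background (0.0137) and the library set as a term (0.0389) removed this call too. Dazl had nearly the same mean level in both LPS populations: 74.7% ± 1.73 in plasma cells, 74.5% ± 3.10 in plasmablasts and 97.7% ± 1.20 in naive B cells over 6 CpGs, all between genes. That gene was singled out after its values were seen.

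Whether the start site changed by a different amount than the rest was tested for each gene with at least 5 CpGs on both sides, as the level near the start minus the level in the rest of the same gene. Of 5 germline genes, this gap rose in plasma cells against naive B cells at Tex15, Tdrd6 and Sycp2, where 72.6% of 4608 genes had a rise, and it fell at Mei1, where 1.04% of all genes had a fall. In plasmablasts it rose at Tex15 and Tdrd6, where 68.5% of all genes had a rise. A start that is already low in naive B cells can lose little. At such a gene loss in the rest alone makes the gap rise, and the test cannot show that the start resisted loss. Between plasma cells and plasmablasts limma called none of the 5, against a rise at 0.174% of all genes (0 higher and 1 lower at an unadjusted p under 0.05).

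At Tex15 the gap was -54.6, -46.3 and -40.8 points in plasma cells, -48.7, -46.4 and -60.5 in plasmablasts, and -73.9, -72.2 and -77.3 in naive B cells, a change of 27.2 ± 3.87 points (SE) in plasma cells (adjusted p = 5.12e-05) and 22.6 ± 3.87 in plasmablasts (adjusted p = 0.000276). The level near its start was 11.5% in plasma cells, 14.6% in plasmablasts and 12.1% in naive B cells, too low to fall far. The rest of Tex15 had 58.8% in plasma cells and 86.6% in naive B cells, and this loss made up the change of the gap. At Tdrd6 it was -22.7, -17.2 and -14.6 points in plasma cells, -26.3, -14.0 and -27.6 in plasmablasts, and -37.0, -35.3 and -32.8 in naive B cells, a change of 16.9 ± 3.30 points in plasma cells (adjusted p = 0.000486). From summed reads that change was 11.6 points (adjusted p = 0.0311). The plasmablast change of 12.4 points at Tdrd6 (adjusted p = 0.00436) was lost without naive B cells 1 (11.4 points, adjusted p = 0.0170), naive B cells 2 (12.2 points, 0.0136) or plasmablasts 2 (8.09 points, 0.0146).

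Sycp2 and Mei1 had similar levels on both sides in naive B cells and moved in opposite directions. At Sycp2 the gap was 11.2, 6.70 and 20.4 points in plasma cells, 4.78, 7.97 and 6.74 in plasmablasts, and 3.39, -0.190 and -7.70 in naive B cells, a change of 14.3 ± 3.48 points in plasma cells (adjusted p = 0.00223): the start averaged 89.5% in plasma cells and 92.4% in naive B cells, and 5 CpGs in the rest, inside Phactr3, averaged 76.7% in plasma cells and 93.9% in naive B cells. That call was lost without naive B cells 3 (11.2 points, adjusted p = 0.0121), without plasma cells 3 (10.5 points, 0.0101) and once the library set was a term (9.38 points, 0.0888). At Mei1 it was -8.66, -8.19 and -15 points in plasma cells, -10.3, -2.93 and -4.86 in plasmablasts, and -3.49, 1.83 and -2.43 in naive B cells, a change of -9.26 ± 2.59 points in plasma cells (adjusted p = 0.00530). The 6 CpGs counted as near a start of Mei1 thus lost more than the 13 tested CpGs in the rest. These 13 averaged 87.2% ± 1.66 in plasma cells and 95.7% ± 0.831 in naive B cells. Most of these 13 lay in a short stretch (chromosome 15, positions 81902470 to 81902510), so they sample little of the gene. They were 1922 to 1962 bp from another annotated start of Mei1. That start lies upstream of those used for the 6 near CpGs, which are themselves inside the gene. The gap call at Mei1 was lost without naive B cells 2 (-7.66 points, adjusted p = 0.0276), naive B cells 3 (-9.79 points, 0.0106) or plasma cells 3 (-7.06 points, 0.0288). It was also lost once the library set was a term (-7.13 points, 0.102). At Brdt the gap was -2.92, -2.48 and -6.10 points in plasma cells, 1.44, -1.32 and 2.41 in plasmablasts, and 0.0456, -0.316 and 2.02 in naive B cells, a change of -4.41 ± 1.95 points in plasma cells that did not pass (adjusted p = 0.0508).

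**Figure D5:**
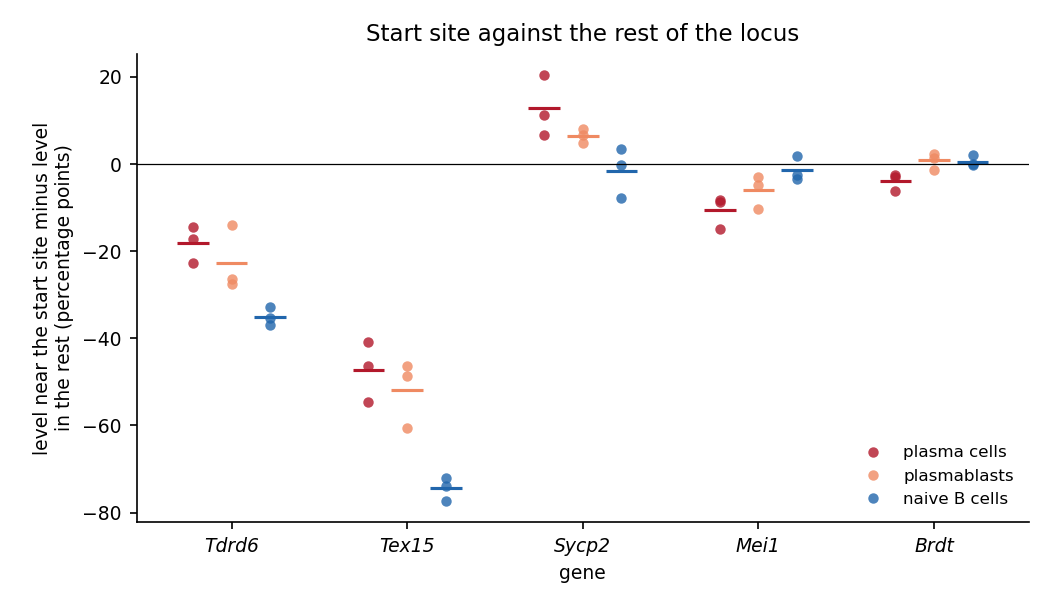
Level near the start site minus level in the rest of the locus (percentage points) for the 5 germline genes with at least 5 tested CpGs on both sides, each point a library and each line the mean of a group. Plasma cells, plasmablasts and naive B cells stand from left to right; the gap is nearer to 0 in both LPS populations at Tex15 and Tdrd6, positive in plasma cells at Sycp2 and negative in plasma cells at Mei1.

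Other genes of germ cells that were not among the 38 were counted in the same way. Of 10 with at least 5 CpGs near the start, 5 were at 80% or more and 4 under 20% in naive B cells, 2 (Tex101, a surface protein of germ cells, and Msh4, a meiotic recombination protein) fell in plasma cells and none in plasmablasts. Tex101 averaged 81.6% in plasma cells and 94.3% in naive B cells over 17 CpGs (-16.3 points pooled, adjusted p = 0.000883), and Msh4 82.8% in plasma cells and 98.5% in naive B cells over 8 CpGs (-16.0 points, adjusted p = 0.00380). Unmethylated starts were those of Pld6, Boll, Zbtb16 and Hspa2, of which Zbtb16 and Pld6 also have known roles outside germ cells. Near the start 5.21% of all genes were called lower in plasma cells, again not matched for the naive level. Away from the start, 20 of 22 were called lower in plasma cells and 18 in plasmablasts, where 89.3% and 62.2% of all genes were.

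The authors' deposited lists of differential CpGs, which per the authors' description of the files used the same limits of 0.01 on the false discovery rate and 20 points, held fewer of the germline gene CpGs. In the authors' deposited table for plasma cells against naive B cells stood 16 of the 136 CpGs near a start (11.8%) and 52 of the 308 in the rest (16.9%), against 2.91% and 19.7% of all tested CpGs. In the authors' deposited table for plasmablasts against naive B cells stood 3 near a start (2.21%) and 12 in the rest (3.90%), against 0.555% and 4.30% of all.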

How the data were processed

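Reduced representation bisulfite sequencing gave DNA methylation in 9 libraries, grouped by GEO's labels into plasma cells, plasmablasts and naive B cells, 3 each. The submitters' processing notes name Bismark, Bowtie2 and build mm9, without versions. For 911004 CpGs the authors deposited counts of methylated and unmethylated reads per library with both strands summed per the file headers, and the level as a fraction, which equalled methylated over all reads to within 5e-16. Their table names each CpG's closest gene by start site and the distance to it.

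From the deposited counts, the 356320 CpGs with at least 10 reads in all 9 libraries were analysed in R 4.3.3 with limma 3.58.1 and the data.table package (version 1.17.8). Each CpG, and each gene with at least 5 CpGs after its reads were summed, entered a quasi-binomial logistic model over the 9 libraries. The Pearson dispersion was moderated with limma, its prior estimated on features with a mean level of 10% to 90%, with 1 as the floor. Every CpG had 1.27, so a CpG's p-value follows its levels and depth. Contrasts used an F test from the deviance with Benjamini-Hochberg adjustment over all features. The gap between start site and rest was tested with limma. Printed levels are unweighted means over CpGs, and tested differences are of pooled reads. The fit of single CpGs, with and without the replicate block, and the limma fit of the gap were tested on simulated data. The fit on reads summed over a gene and the term for the library set were not. The members and lists were chosen with earlier results of these data known.

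By the rule for named genes, values in every library are given for members called near the start, the 6 with the largest plasma cell difference there, the 3 highest and 3 lowest in naive B cells, and the 6 with most called CpGs in the rest, with each one's strongest called CpG. Libraries of a group correlated at 0.956 to 0.986, and their counts were identical at 1.29% of CpGs at most, so each counted as 1 sample. Reads amplified by PCR without molecular identifiers may repeat a molecule, so limits from read counts cover counting error only. Alternatives were other coverage minimums, windows, thresholds and weights, a replicate block, a term for the library set, subtraction of the background level, and each library left out; a window of 200 bp and the removal of CpGs inside another gene were chosen after seeing the data.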

Additional observations from a re-analysis of the deposited data

How the results depend on the processing

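No setting made more than 1 of the 444 CpGs higher in plasma cells or plasmablasts than in naive B cells, and most values kept their direction and side of the threshold. Counts are given as lower calls unless said otherwise, P for plasma cells and B for plasmablasts against naive B cells. With 5 reads as the minimum, mean levels near the start were 66.9% in plasma cells, 69.9% in plasmablasts and 74.7% in naive B cells, those in the rest 67.7%, 72.5% and 83.3%, and the gap rose at 7 genes (P) and 8 (B) and fell at 0 (P). With 20 reads only 21 germline gene CpGs near the start and 79 in the rest were left. Of the 21, 7 (P), 3 (B) and 0 (between the LPS populations) were called, and of the 79, 24 (P) and 12 (B). No germline gene kept enough CpGs for a gene test near the start or for a gap test, so neither could give a call. In the rest 7 genes were tested, and 5 (P) and 4 (B) were called. Levels were 75.0% in plasmablasts and 85.4% in naive B cells near the start. In the rest they were 67.3% in plasma cells, 71.6% in plasmablasts and 82.0% in naive B cells.

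A window of 500 bp gave 10 (P), 2 (B) and 0 (between the LPS populations) calls among 100 CpGs near the start. In the rest 1 CpG was called between the LPS populations. Of 8 genes tested near the start 0 were called (P), and the gap fell at 0 of 3 genes (P). Levels were 66.3% in plasma cells, 68.7% in plasmablasts and 72.7% in naive B cells near the start. In the rest they were 71.3% in plasmablasts and 81.1% in naive B cells. A window of 2500 bp gave 7 gene calls (P) among 15 genes near the start and 0 falls of the gap (P) among 5. Levels were 80.2% near the start in naive B cells and 68.4% in the rest in plasmablasts. A window of 200 bp, chosen after seeing the data, gave 5 (P), 0 (B) and 0 (between the LPS populations) calls among 60 CpGs near the start. In the rest 1 CpG was called between the LPS populations. Of 5 genes tested near the start 0 were called (P). Among 4 genes the gap rose at 1 (B) and fell at 0 (P). Levels were 58.7% in plasma cells, 61.0% in plasmablasts and 64.2% in naive B cells near the start, and 67.4%, 72.2% and 81.5% in the rest. Without CpGs inside another gene, also chosen after seeing the data, the rest averaged 69.7% in plasma cells, 74.7% in plasmablasts and 86.2% in naive B cells.

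The replicate block gave 0 gene calls (P) near the start and 0 CpG calls between the LPS populations near the start. Same-numbered libraries did not deviate together (correlations of -0.0287 to 0.0302, and not every library correlated best with its own number). Counting error weakens such correlations, so they cannot tell whether same-numbered libraries share an animal. The library set as a term gave 10 CpG calls (P) and 0 gene calls (P) near the start, 35 CpG calls (P) in the rest, 0 CpG calls between the LPS populations, 1 rise (B) and 0 falls (P) of the gap. Subtracting the background gave 0 CpG calls between the LPS populations near the start. A minimum of 10 points gave 17 (B) near the start, and 69 lower and 1 higher (B) in the rest; 30 points gave 5 (P), 2 (B) and 0 (between the LPS populations) near the start, and 32 (P) and 12 (B) in the rest. Unweighted means gave 1 gene call (B) near the start and 2 between the LPS populations in the rest. Gaps from summed reads gave 1 rise (B) and 0 falls (P). At least 3 CpGs per gene, which tests more genes, gave 9 gene calls (P) among 20 genes near the start. Among 16 genes the gap then rose at 7 (P) and 4 (B), and the share over all genes is not given. Where the text above names no reason, the cause was not tested.

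With each library left out in turn, CpG calls ranged from 14 to 22 (P), 4 to 6 (B) and 0 to 1 (between the LPS populations) near the start, and from 69 to 93 (P), 31 to 43 (B) and 0 to 2 (between the LPS populations) in the rest, with 0 to 1 higher (B). Gene calls ranged from 0 to 6 (P) near the start, and from 19 to 22 (P), 12 to 15 (B) and 0 to 1 (between the LPS populations) in the rest. Gap rises ranged from 2 to 3 (P) and 1 to 2 (B), and falls from 0 to 1 (P). Mean levels ranged from 68.8% to 70.3% in plasma cells, 72.4% to 74.1% in plasmablasts and 78.1% to 79.2% in naive B cells near the start, and from 63.8% to 65.4%, 69.2% to 70.1% and 79.1% to 80.1% in the rest.

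Over all alternatives, gene differences near the start kept their side of the threshold 393 times, lost it 29 times and passed it 7 times; in the rest this was 803, 33 and 27 times, and for the gap 151, 17 and 2 times. Among single genes that turned sign, the gap at Brdt with 5 reads as the minimum changed by 7.0 points in plasma cells (adjusted p = 0.00316), against -4.41. With that minimum Tex15 near the start was -4.88 points in plasmablasts. Nanos2 in the rest was 1.59 in plasmablasts with 20 reads and 0.356 with unweighted means, and the Brdt gap -0.00966 in plasmablasts with the library set as a term. With each library left out, plasmablast differences ran from -11.7 to 1.26 for Tdrd6 and from -2.46 to 3.86 for Tex15 near the start, from -3.52 to 3.22 for Tex14 and from -2.25 to 1.23 for Nanos2 in the rest, and from -0.523 to 1.34 for the Brdt gap, and the plasma cell difference of Syce2 near the start from -1.73 to 0.375. Depth limits what could be tested: CpGs near the start were deposited for Dazl, Ddx4, Asz1, Hormad1, Sohlh1 and Tex19.1, and none had 10 reads in every library.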
